A study of Agaricus bisporus with 12 samples.

Results

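Mycelium of the white button mushroom *Agaricus bisporus* growing through compost expressed 38 genes annotated as enzymes that cut pectin, trim the side chains of pectin and hemicellulose, or split short sugar chains into single sugars. They were taken from 9502 genes by the text of their first KEGG Orthology hit in the deposited tables, which had to name pectin, pectate, galacturonic acid, rhamnose, arabinose chains, galactan, a xylosidase, galactosidase, beta-glucosidase, beta-mannosidase, fucosidase, mannan-cutting enzyme, acetylxylan esterase or cutinase. By role they comprise 11 enzymes of the pectin backbone, 5 of side chains, 5 galactosidases, 4 of xylan ends and side chains, 3 of mannan, 6 beta-glucosidases and 4 others (1 fucosidase and 3 cutinases). The terms glucuronidase and feruloyl were also searched and added no gene. The rule leaves out endo-1,4-beta-xylanases, 1,3-beta-glucosidases and 2 further genes by number, and it uses no measured value. The side-chain group includes a D-arabinono-1,4-lactone oxidase (gene 195196) and a D-arabinose 1-dehydrogenase (gene 191905), which oxidise D-arabinose or its lactone, do not cut a polysaccharide, and are included through their names alone. The annotation of 5 members rests on a match weaker than an e-value of 1e-30, so their functions are less sure. These are the cutinases 176382, 183005 and 190202, the rhamnogalacturonyl hydrolase 212258 and the mannan endo-1,6-alpha-mannosidase 206494.

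Pectin is the gel of the plant primary wall. Its backbone is either a plain chain of galacturonic acid, cut by pectate lyases and polygalacturonases once pectinesterases have removed methyl groups, or a chain that alternates galacturonic acid with rhamnose (rhamnogalacturonan) and carries arabinan and galactan side chains. Wheat straw is poor in pectin and rich in cellulose and arabinoxylan, and the enzymes that act last on these, beta-glucosidases and beta-xylosidases, release the glucose and xylose that a fungus can take up.

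All 12 libraries came from the commercial heterokaryon strain A15, grown on wheat straw and manure compost, and no stage carries a genetic change or added agent. The 6 stages, with 2 libraries each, were spawning (compost colonised for 16 days), pinning (when primordia form), both flushes, and a time after each of them; a flush is a wave of mushrooms that is picked. A casing layer of peat and lime was laid on the colonised compost after the spawning stage. Total RNA was taken from mycelium-colonised compost and not from picked mushrooms, and the series asks how the ability to degrade plant biomass varies through the life cycle.

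Unique reads per library ranged from 7.27 to 9.34 M (mega-reads), and each of the 38 genes had a read in every library. Levels are given as RPKM, which divides reads by gene length and by the total of the library. The labels do not say whether replicates are separate cultures. A p-value therefore sets a stage change only against the spread among these libraries, estimated over all stages. That spread may be technical. Both first flush libraries have a different code letter from the other 10, so first flush and any library batch cannot be told apart. The libraries from after first flush were the least similar pair: 11 of the 38 genes lay over 2-fold apart, 10 of them higher in replicate 2, against 0 to 3 at the other stages. Of all 8918 genes above 1 RPKM in either library of that pair, 7.05% did, against 2.59% to 5.05% at the other stages. In that pair the summed RPKM of 12 laccases, secreted mycelial enzymes, was 386 and 1037, that of 4 lectins of fruiting bodies 1152 and 273, and that of 7 tyrosinases 186 and 102. Over all libraries the laccases summed to between 386 and 27911 RPKM and 7 hydrophobins to between 5144 and 53377. The fruiting-body markers were never absent, with sums from 95.3 to 572 RPKM for tyrosinases, highest at first flush, and from 217 to 2017 for lectins, highest at pinning. No gene is described as an aegerolysin. How much these marker differences bear on the levels below was not tested, and in bulk samples fewer cells of a type and less RNA per cell cannot be told apart.

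Together the 38 genes took their largest shares of the reads at spawning, first flush and after second flush, and their smallest after first flush and during second flush. They held 0.523% ± 0.0047 of all reads at spawning (mean ± SD, n = 2 at each stage) and 0.357% ± 0.019 at pinning. The share was 0.546% ± 0.080 at first flush and then 0.186% ± 0.026 after first flush. It stayed at 0.187% ± 0.0030 during second flush and was 0.455% ± 0.073 at the last stage. Without the D-arabinose pair the shares were 0.448%, 0.302%, 0.532%, 0.138%, 0.129% and 0.418% in the same order. By the mean of its libraries, 13 genes peaked at spawning, 1 at pinning, 10 at first flush and 3 after it, and 11 after second flush; 0 peaked during second flush. Of the 11 backbone enzymes, 6 had their highest mean after second flush and 1 at first flush. Of the 6 beta-glucosidases, 4 had theirs at first flush and 1 after second flush. Several of these peaks overlapped another stage: those of 139877, 179502, 62194 and 151878 after second flush and of 199975 at first flush. Gene 151878 also had too few reads for the tests below. Peaks were not counted over all genes.

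**Figure D1:**
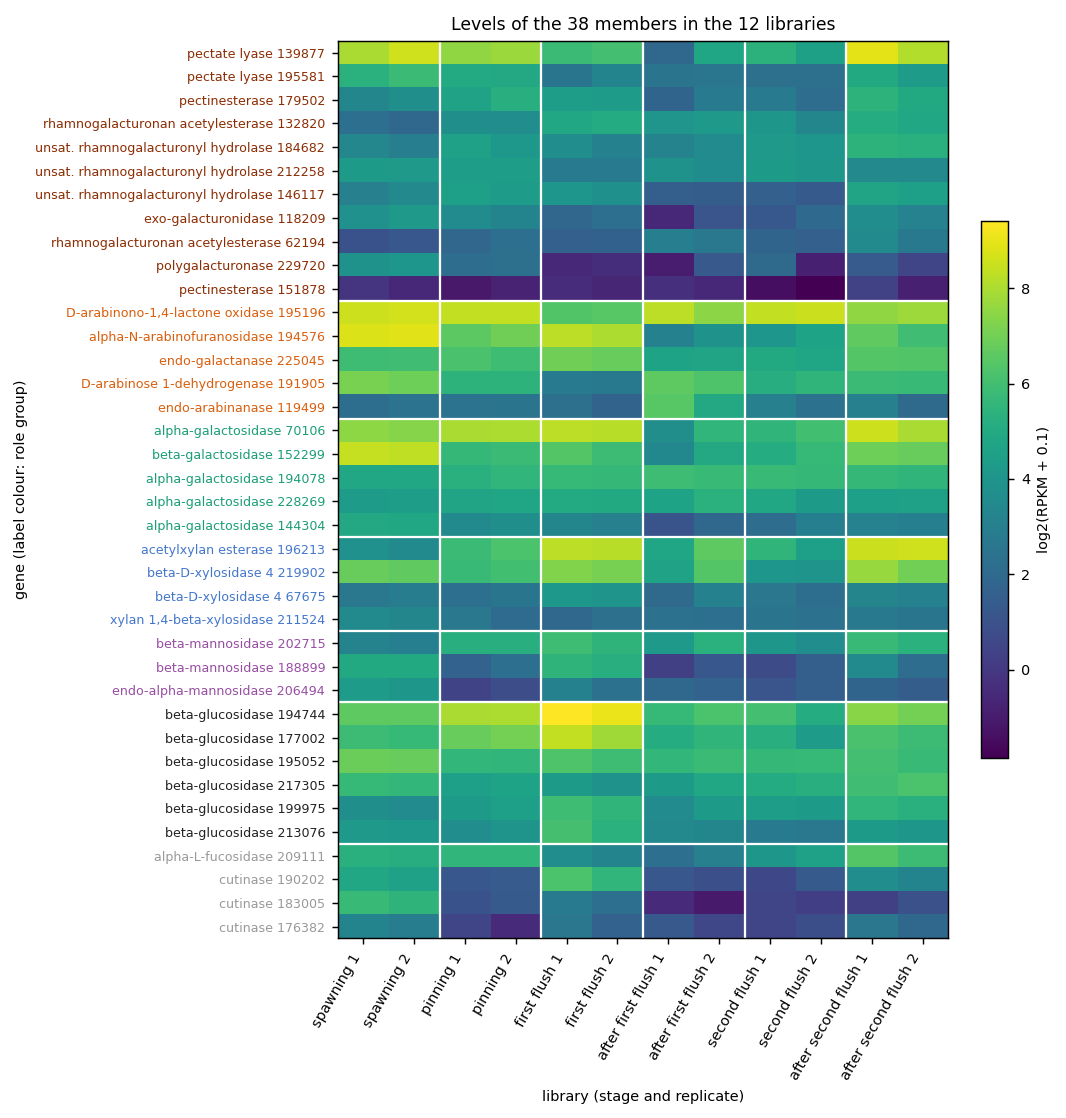
Heat map of the level of each of the 38 genes (rows, grouped by role) in each of the 12 libraries (columns, in stage order), as log2(RPKM + 0.1). Yellow is high and dark blue or violet low: the arabinofuranosidase 194576 is bright at spawning and first flush and dull after first flush, whereas the endo-arabinanase 119499 is brightest in the 2 libraries from after first flush.

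The genes that took most of these reads changed with stage. At spawning the beta-galactosidase 152299 held 18.7% of the reads of the 38 genes and the arabinofuranosidase 194576 held 17.6%. At first flush the beta-glucosidases 194744 and 177002 led with 21.0% and 13.6%. The lactone oxidase 195196 came first at pinning, with 14.0% against 13.5% for 194744. It also came first after first flush, with 20.8% (28.5% and 13.0% in the 2 libraries), and during second flush, with 28.4%. After second flush the order was led by a pectate lyase (139877, 11.2%) and the acetylxylan esterase 196213 (10.3%).

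**Figure D2:**
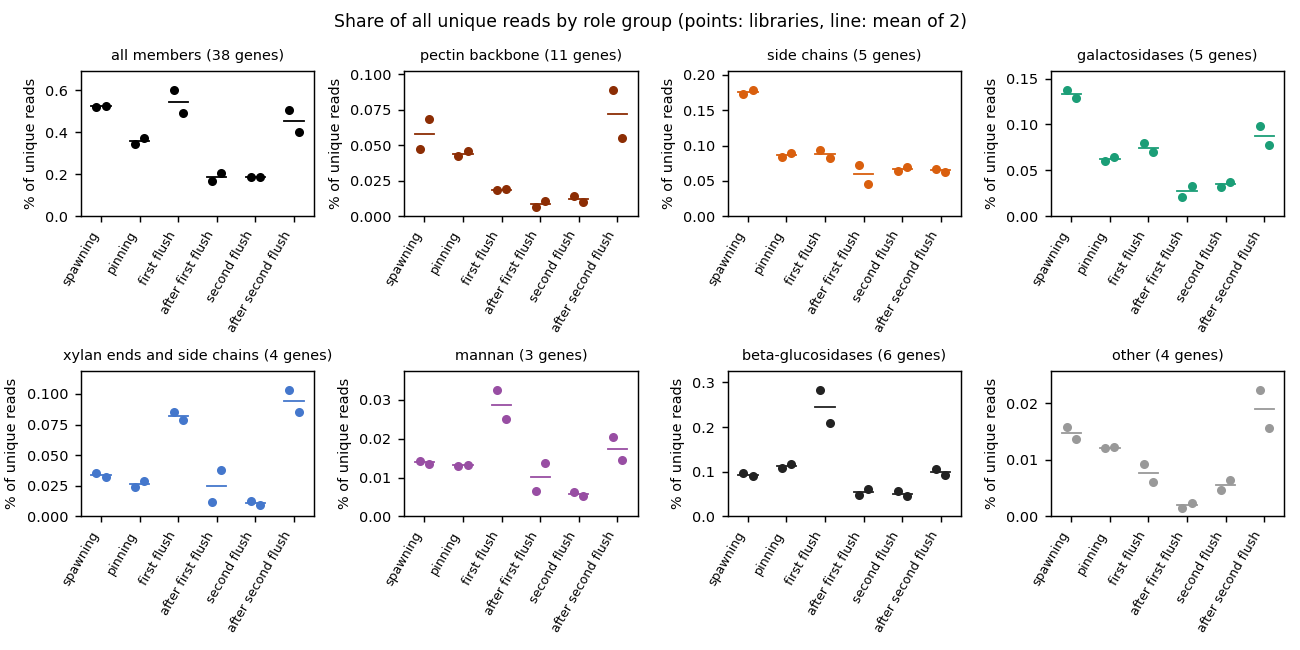
Percent of all reads held by each role group in each library, by stage (points are libraries, short lines the means of 2). The beta-glucosidases peak at first flush at a mean of 0.246%. The backbone enzymes have their lowest mean share after first flush, 0.00873%, and their highest after second flush, 0.0721%. Their after second flush libraries (0.0890% and 0.0551%) overlap those of spawning (0.0475% and 0.0685%). Their after first flush libraries (0.00665% and 0.0108%) overlap those of second flush (0.0141% and 0.00993%).

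Most of the changes called after first flush were falls and most of those called after second flush were rises, while the earlier steps moved them both ways. Changes were tested for 37 of them with edgeR's quasi-likelihood test on read counts; a change is called where its p, adjusted by Benjamini-Hochberg over all 8814 tested genes, is under 0.05; the pectinesterase 151878, at 0.179 to 1.19 RPKM, had too few reads. The typical level of the 37 (median of means 20.6 RPKM) was below that of all genes tested (27.3 RPKM). Over the 6 stages 36 of 37 changed, where 85.6% of all genes did; the gene not called is the alpha-galactosidase 228269. Consecutive steps share the libraries of the stage between them, so their counts are not independent.

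From spawning to pinning, 11 genes rose and 14 fell, 29.7% and 37.8% of those tested, where 29.3% of all genes rose and 25.2% fell. The median log2 change was −0.49, against 0.05 over all genes. The acetylxylan esterase 196213 had the largest rise and the cutinase 183005 the largest fall. Of the 10 backbone enzymes tested 5 rose and 2 fell, while all 3 cutinases fell and the fucosidase was not called.

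From pinning to first flush, 14 rose and 11 fell (37.8% and 29.7%), where 25.1% of all genes rose and 23.6% fell. The role groups differed: 1 backbone enzyme rose and 7 fell, while 4 of 6 beta-glucosidases, 2 of 4 xylan enzymes and 2 of 3 mannan enzymes rose and 1 of these 13 genes fell. Of the 5 galactosidases 0 were called by edgeR and 0 by DESeq2, with 1 at an unadjusted p under 0.05 in each. Without first flush replicate 1 the counts of rises and of falls were both smaller, as were those over all genes.

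After first flush, 24 genes fell and 6 rose against first flush (64.9% and 16.2%), where 26.0% of all genes fell and 26.1% rose. The median log2 change was −1.44, against −0.01 over all genes. All 3 mannan enzymes, the fucosidase and the 3 cutinases fell, as did 5 of 6 beta-glucosidases and 3 of 4 xylan enzymes. The 6 risers were the D-arabinose pair, the endo-arabinanase 119499, the backbone genes 212258 and 62194 and the beta-glucosidase 217305. Of the 30 calls, 20 stood under every alternative setting tried, 5 of them rises and 15 falls.

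From after first flush to second flush few genes moved: 5 rose and 4 fell (13.5% and 10.8%), where 11.3% of all genes rose and 11.0% fell. None of these 9 calls stood under every setting. In an edgeR fit on the 4 libraries of these stages alone 0 were called, with 10 at an unadjusted p under 0.05, and the calls over all genes numbered 46 in place of 1967; DESeq2 on all stages called 13. The count of 9 fell without either second flush library, as did the count over all genes.

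After second flush the direction turned. Against second flush 22 genes rose and 2 fell, 59.5% and 5.41% of those tested, where 5.29% of all genes rose and 2.89% fell. The median log2 change was 1.36, against −0.01 over all genes. Of the backbone enzymes 8 of 10 rose, and 5 of 6 beta-glucosidases did. The count depended on single libraries: it fell most without after second flush replicate 1, and also without either second flush library. The count over all genes fell in each of these fits too. The 7 rises that stood under every setting were those of the pectate lyase 195581, the pectinesterase 179502, the rhamnogalacturonyl hydrolase 146117, the endo-galactanase 225045, the fucosidase 209111, the cutinase 190202 and the beta-glucosidase 213076.

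Like stages of the flushes also differed. At second flush 19 genes were lower than at first flush and 6 higher (51.4% and 16.2%), where 22.7% of all genes were lower and 23.0% higher; 22 of these 25 calls stood under every setting. After second flush 22 genes were higher than after first flush and 2 lower (59.5% and 5.41%), where 8.75% of all genes were higher and 7.53% lower. The count of 24 was 12 in a fit on the 4 libraries alone, where calls over all genes numbered 223 in place of 1435. It also fell without after second flush replicate 1, as did the count over all genes.

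**Figure D3:**
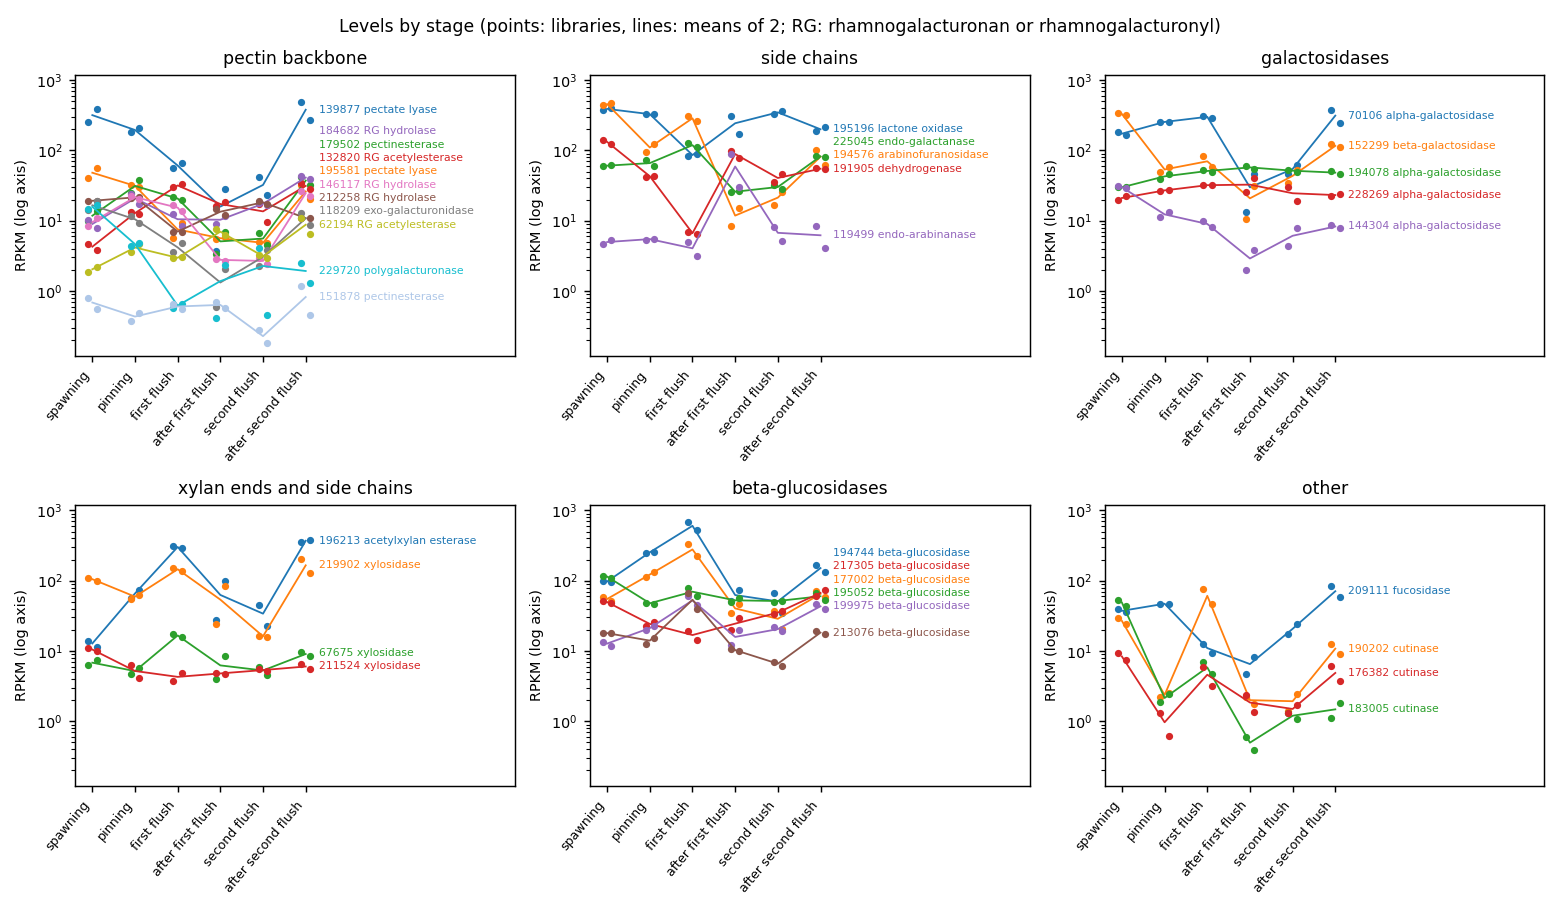
Levels in RPKM (log axis) by stage for 6 of the 7 role groups, with points for libraries and lines through the means of 2. The backbone genes 139877, 195581, 179502 and 146117 are low from after first flush to second flush and high at the last stage, whereas the endo-arabinanase 119499 and the D-arabinose dehydrogenase 191905 have a high point after first flush.

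Of the pectin backbone enzymes, the pectate lyases, which cut de-esterified pectin by elimination, had the highest means over the 12 libraries, although from first flush on 195581 lay below several others. Pectate lyase 139877 had 250 and 385 RPKM at spawning, 183 and 207 at pinning, 56.6 and 65.2 at first flush, 3.73 and 28.0 after first flush, 41.6 and 22.9 during second flush and lastly 485 and 273 after second flush. Both libraries from after second flush lay above those from the 3 stages before it, and the spawning and after second flush libraries overlapped. Its rise after second flush (log2 change 3.51, SE 0.79, edgeR adjusted p = 0.041) was lost when any 1 of the 4 compared libraries was left out (adjusted p = 0.065 to 0.21) and with the replicate block (adjusted p = 0.057). Against after first flush it was higher by 4.64 (SE 0.84, edgeR adjusted p = 0.013), a call that was lost without after second flush replicate 1 (adjusted p = 0.058) and in the fit on the compared stages alone (adjusted p = 0.16).

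The second pectate lyase, 195581, gave firmer calls at a lower level. Its libraries read 40.7 and 55.6 RPKM at spawning, 32.2 and 30.4 at pinning, 5.71 and 9.31 at first flush, 5.44 and 5.84 after first flush, 4.90 and 4.78 during second flush and lastly 32.0 and 20.1 after second flush. The 6 libraries from first flush to second flush all lay below the other 6. It fell at first flush (log2 change −2.28, SE 0.27, edgeR adjusted p = 6.2e-05) and rose after second flush (2.37, SE 0.28, edgeR adjusted p = 0.00077), and both calls stood under every setting.

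Pectinesterase 179502, which removes the methyl groups of pectin, had 9.99 and 13.6 RPKM at spawning, 24.9 and 37.7 at pinning, 21.5 and 19.8 at first flush, 3.34 and 6.81 after first flush, 6.67 and 4.47 during second flush and lastly 42.4 and 32.0 after second flush. The after first flush and second flush libraries were the lowest 4. It rose from spawning to pinning (log2 change 1.27), fell after first flush (−2.04, SE 0.33, edgeR adjusted p = 0.00045) and rose after second flush (2.69, SE 0.32, edgeR adjusted p = 0.00092). The other pectinesterase, 151878, stayed at or below 1.19 RPKM in every library.

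Among the enzymes of rhamnogalacturonan, the unsaturated rhamnogalacturonyl hydrolases, which take the end sugar off fragments left by lyases, did not move together. Hydrolase 146117 had 8.28 and 10.8 RPKM at spawning, 22.6 and 20.6 at pinning, 16.7 and 13.9 at first flush, 2.88 and 2.66 after first flush, 2.93 and 2.42 during second flush and lastly 26.6 and 22.7 after second flush. Its 4 libraries from after first flush and second flush lay below all others, with a fall after first flush (log2 change −2.49, SE 0.21, edgeR adjusted p = 5.0e-06) and a rise after second flush (3.15, SE 0.21, edgeR adjusted p = 2.1e-05). Hydrolase 184682 had its lowest library at 7.78 RPKM, at spawning, and its highest at 43.4, after second flush.

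Hydrolase 212258, one of the weakly annotated genes, also fell into first flush but moved opposite to 146117 after each flush. Its levels were 19.3 and 19 RPKM at spawning, 20.9 and 22.1 at pinning, 7.0 and 6.99 at first flush, 14.8 and 12.1 after first flush, 19.2 and 17.3 during second flush and lastly 10.8 and 11.0 after second flush. It was lowest at first flush, and its replicates lay close at every stage. It fell into first flush (log2 change −1.84, SE 0.16, edgeR adjusted p = 6.8e-06) and rose after it (0.91, SE 0.16, edgeR adjusted p = 0.00061). Its fall after second flush (−0.79, edgeR adjusted p = 0.0091) was lost without second flush replicate 1 (adjusted p = 0.054), without after second flush replicate 1 (adjusted p = 0.085) and in the fit on the compared stages alone (adjusted p = 0.061).

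The rhamnogalacturonan acetylesterases, which strip acetyl groups so that the backbone can be cut, are separated by 1 gene in RefSeq's order of genes on the H97 assembly Agabi_varbisH97_2. Acetylesterase 132820 had 4.73 and 3.80 RPKM at spawning, 13.2 and 12.5 at pinning, 29.8 and 33.7 at first flush, 16.1 and 18.4 after first flush, 17.4 and 9.74 during second flush and lastly 34.1 and 28.4 after second flush. It was the only backbone enzyme called as rising into first flush (log2 change 1.08, SE 0.23, edgeR adjusted p = 0.0022). Its neighbour 62194 stayed between 1.89 and 11.0 RPKM and rose after first flush (1.2, SE 0.30, edgeR adjusted p = 0.0059), where 132820 fell (−0.91, SE 0.22, edgeR adjusted p = 0.0050).

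The hydrolases of the plain galacturonic acid chain were highest at spawning. Polygalacturonase 229720, which cuts inside that chain, had 14.8 and 16.7 RPKM at spawning, 4.40 and 4.88 at pinning, 0.576 and 0.663 at first flush, 0.410 and 2.35 after first flush, 4.07 and 0.462 during second flush and lastly 2.54 and 1.31 after second flush. Spawning lay above every later library, and the replicates of after first flush and of second flush were far apart. Its fall into pinning (log2 change −1.90, SE 0.63, edgeR adjusted p = 0.030) and into first flush (−3.10, SE 0.89, edgeR adjusted p = 0.018) were each lost when any 1 of the compared libraries was left out (adjusted p = 0.076 to 0.14 and 0.059 to 0.094), and the first also with DESeq2 (adjusted p = 0.08). The exo-acting galacturonidase 118209, which takes single galacturonic acids off the chain end, had 14.2 and 18.9 RPKM at spawning and its lowest library, 0.586, after first flush.

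Side-chain enzymes moved in different directions. Arabinofuranosidase 194576, which removes arabinose from arabinan and arabinoxylan, had 443 and 468 RPKM at spawning, 95.4 and 125 at pinning, 313 and 260 at first flush, 8.40 and 15.2 after first flush, 16.9 and 25.7 during second flush and lastly 100 and 62.3 after second flush. Its 2 spawning libraries were above all others and its 2 libraries from after first flush were below all others. The fall after first flush was among the steepest in the set (log2 change −4.62, SE 0.36, edgeR adjusted p = 1.2e-05). Its rises into first flush (1.16, edgeR adjusted p = 0.013) and after second flush (1.87, edgeR adjusted p = 0.0093) were weaker calls. The first was lost without pinning replicate 1 (adjusted p = 0.093) and without first flush replicate 1 (adjusted p = 0.068), and the other without second flush replicate 1 (adjusted p = 0.053) and without after second flush replicate 1 (adjusted p = 0.065).

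Endo-arabinanase 119499, which cuts inside the arabinan chain, moved opposite to 194576 after first flush. It had 4.59 and 5.35 RPKM at spawning, 5.36 and 5.58 at pinning, 4.90 and 3.19 at first flush, 87.7 and 30.3 after first flush, 8.26 and 5.18 during second flush and lastly 8.32 and 4.08 after second flush. The 2 libraries from after first flush were far above the other 10, whose highest value was 8.32, though nearly 3-fold apart from each other. The rise after first flush (log2 change 3.83, SE 0.53, edgeR adjusted p = 0.00038) stood under every setting. The fall to second flush (−3.01, SE 0.50, edgeR adjusted p = 0.0051) was lost only in the fit on the compared stages alone (adjusted p = 0.086).

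Endo-galactanase 225045, which cuts the galactan side chains, had 60.2 and 61.0 RPKM at spawning, 72.7 and 59.2 at pinning, 126 and 111 at first flush, 25.6 and 26.1 after first flush, 32.0 and 28.3 during second flush and lastly 83.5 and 80.7 after second flush. Replicates were close throughout, and the first flush libraries were above all others. It rose into first flush (log2 change 0.62, SE 0.12, edgeR adjusted p = 0.0016), fell after it (−2.23, SE 0.13, edgeR adjusted p = 5.2e-07) and rose after second flush (1.40, SE 0.13, edgeR adjusted p = 0.00011), calls that stood under every setting.

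The D-arabinose pair had its lowest levels at first flush. Lactone oxidase 195196 had 377 and 402 RPKM at spawning, 326 and 329 at pinning, 82.4 and 89.2 at first flush, 313 and 174 after first flush, 332 and 363 during second flush and lastly 186 and 214 after second flush. Dehydrogenase 191905 had 142 and 122 RPKM at spawning, 42.3 and 43.4 at pinning, 6.83 and 6.46 at first flush, 99.0 and 78.6 after first flush, 35.5 and 45.6 during second flush and lastly 55.7 and 54.0 after second flush. For both genes the first flush libraries lay below the other 10. Into first flush the oxidase fell (log2 change −2.16, SE 0.23, edgeR adjusted p = 4.0e-05), as did the dehydrogenase (−2.91, SE 0.18, edgeR adjusted p = 9.7e-07). Both rose after it, by 1.47 (SE 0.23, edgeR adjusted p = 0.00031) and 3.71 (SE 0.18, edgeR adjusted p = 3.3e-07). The oxidase's fall after second flush (−0.84, edgeR adjusted p = 0.041) was lost when any 1 of the compared libraries was left out (adjusted p = 0.068 to 0.28), with the replicate block (adjusted p = 0.0598) and with limma (adjusted p = 0.0505).

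Of the galactosidases, which release galactose from oligosaccharides such as raffinose (alpha) or from galactan fragments (beta), 3 varied strongly and 2 little. Alpha-galactosidase 70106 had 180 and 166 RPKM at spawning, 251 and 257 at pinning, 308 and 293 at first flush, 13.1 and 46.5 after first flush, 45.9 and 63.0 during second flush and lastly 377 and 247 after second flush. The 4 libraries from after first flush and second flush lay below the other 8. It fell after first flush (log2 change −3.36, SE 0.51, edgeR adjusted p = 0.00089). Its rise after second flush (2.46, SE 0.49, edgeR adjusted p = 0.022) was lost without second flush replicate 1 (adjusted p = 0.12), second flush replicate 2 (0.087) or after second flush replicate 1 (0.14).

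Beta-galactosidase 152299 had 341 and 316 RPKM at spawning, 49.9 and 57.2 at pinning, 82.6 and 57.3 at first flush, 10.6 and 31.0 after first flush, 34.7 and 52.1 during second flush and lastly 122 and 110 after second flush. Spawning stood well above every later library, and the fall to pinning was 2.75 on the log2 scale (log2 change −2.75, SE 0.45, edgeR adjusted p = 0.0011). Its fall after first flush (−1.77, edgeR adjusted p = 0.0099) was lost without first flush replicate 1 (adjusted p = 0.054) and in the fit on the compared stages alone (adjusted p = 0.09). Alpha-galactosidase 144304 was likewise highest at spawning, at 30.9 and 29.0 RPKM, and lowest after first flush, at 1.99 and 3.81. Alpha-galactosidases 194078 (29.7 to 59.8 RPKM) and 228269 (19.4 to 40.0 RPKM) had the flattest profiles, and 194078 had 1 call between consecutive stages, a rise into pinning (0.38, edgeR adjusted p = 0.014) that was lost without either spawning library or pinning replicate 2 (adjusted p = 0.061 to 0.14).

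Of the xylan enzymes, acetylxylan esterase 196213, which removes acetyl groups from xylan, had the widest range. It had 14.1 and 11.5 RPKM at spawning, 56.9 and 74.8 at pinning, 311 and 293 at first flush, 27.5 and 97.8 after first flush, 45.2 and 22.8 during second flush and lastly 356 and 383 after second flush. First flush and after second flush lay far above the other stages, and the replicates after first flush were over 3-fold apart. It rose into pinning (log2 change 2.23, SE 0.57, edgeR adjusted p = 0.012), a call lost without spawning replicate 2 (adjusted p = 0.069). It rose into first flush (1.97, edgeR adjusted p = 0.017), lost without either pinning library or first flush replicate 1 (adjusted p = 0.059 to 0.10), and fell after it (−2.29, SE 0.54, edgeR adjusted p = 0.0085), lost in the fit on the compared stages alone (adjusted p = 0.073). The rise after second flush (3.41, SE 0.57, edgeR adjusted p = 0.012) was lost without second flush replicate 2 (adjusted p = 0.080) or after second flush replicate 1 (0.064).

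The beta-xylosidases, which release xylose from the ends of xylan fragments, had unlike levels and profiles. Xylosidase 219902 had 111 and 99.2 RPKM at spawning, 55.1 and 63.5 at pinning, 154 and 137 at first flush, 24.4 and 83.1 after first flush, 16.5 and 15.8 during second flush and lastly 204 and 127 after second flush. The second flush libraries were the lowest 2. Its rise after second flush (log2 change 3.30, SE 0.51, edgeR adjusted p = 0.0085) was lost without either second flush library or after second flush replicate 1 (adjusted p = 0.060 to 0.072), and its fall after first flush (−1.46, edgeR adjusted p = 0.031) without either first flush library (adjusted p = 0.075 and 0.10) and in the fit on the compared stages alone (adjusted p = 0.16). Its level at second flush was lower than at first flush by a call that stood under every setting (−3.07, SE 0.50, edgeR adjusted p = 0.0016). Xylosidase 67675 stayed between 3.99 and 17.4 RPKM with its highest libraries at first flush, and 211524 between 3.75 and 11.0 with its highest at spawning.

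The beta-mannosidases of the mannan group moved in opposite directions at pinning. Beta-mannosidase 188899, which frees mannose from short mannan chains, had 31.2 and 31.2 RPKM at spawning, 3.17 and 4.77 at pinning, 43.8 and 36.5 at first flush, 1.12 and 2.18 after first flush, 1.61 and 2.84 during second flush and lastly 11.3 and 4.35 after second flush. Spawning and first flush libraries lay above all the others. It fell into pinning by 3.11 on the log2 scale (log2 change −3.11, SE 0.45, edgeR adjusted p = 0.00042), rose by as much into first flush (3.11, SE 0.45, edgeR adjusted p = 0.00057) and fell after it (−4.62, SE 0.49, edgeR adjusted p = 9.8e-05).

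The other beta-mannosidase, 202715, had 9.0 and 8.08 RPKM at spawning, 37.7 and 37.1 at pinning, 59.8 and 43.9 at first flush, 18.2 and 40.1 after first flush, 17.2 and 12.7 during second flush and lastly 52.7 and 40.5 after second flush. From spawning to pinning it rose (log2 change 2.0, SE 0.34, edgeR adjusted p = 0.00097), where 188899 fell. Its fall after first flush (−0.85, edgeR adjusted p = 0.047) was lost under most settings, with adjusted p up to 0.22 without first flush replicate 1, and the libraries from after first flush overlapped with other stages. The endo-mannosidase 206494 is weakly annotated, and its name gives an alpha linkage where those of the beta-mannosidases give a beta linkage. It was at 20.6 and 17.2 RPKM at spawning and between 1.29 and 8.42 in the other 10 libraries.

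The beta-glucosidases, which split cellobiose and other glucose disaccharides, were led by 194744 and 177002, and both built up from spawning to first flush. Gene 194744 had 98.0 and 96.9 RPKM at spawning, 250 and 257 at pinning, 674 and 533 at first flush, 50.7 and 74.3 after first flush, 66.5 and 35.0 during second flush and lastly 168 and 134 after second flush. Gene 177002 had 58.0 and 51.9 RPKM at spawning, 111 and 134 at pinning, 334 and 223 at first flush, 34.8 and 45.9 after first flush, 36.7 and 20.7 during second flush and lastly 71.3 and 58.4 after second flush. In both genes the pinning libraries lay above spawning and the first flush libraries above pinning, without overlap. After first flush 194744 fell by 3.30 on the log2 scale (log2 change −3.30, SE 0.28, edgeR adjusted p = 9.1e-06) and 177002 by 2.81 (−2.81, SE 0.27, edgeR adjusted p = 2.0e-05), calls that stood under every setting. Their rises into first flush (1.03 and 0.96, edgeR adjusted p = 0.0074 and 0.0098) were lost without first flush replicate 1 (adjusted p = 0.054 and 0.088), and that of 177002 also without pinning replicate 1 (0.079). The rise of 194744 after second flush (1.53, edgeR adjusted p = 0.0071) was lost without after second flush replicate 1 (adjusted p = 0.060), and that of 177002 (1.14, edgeR adjusted p = 0.024) without second flush replicate 2 or either after second flush library (adjusted p = 0.052 to 0.16) and in the fit on the compared stages alone (adjusted p = 0.065).

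The other beta-glucosidases had unlike profiles. Gene 213076, at 6.18 to 67.0 RPKM, rose into first flush (log2 change 1.70, SE 0.20, edgeR adjusted p = 6.0e-05), and 199975, at 12 to 59.7 RPKM, did too (1.09, SE 0.20, edgeR adjusted p = 0.0013). Gene 217305 had its lowest libraries at first flush, 19.2 and 14.5 RPKM, and its highest after second flush, 61.2 and 73.1. Gene 195052 was highest at spawning, at 118 and 111 RPKM, and lay between 47.3 and 78.8 in the other libraries.

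Alpha-L-fucosidase 209111, which removes fucose from side chains, had 39.0 and 35.4 RPKM at spawning, 46.8 and 47.3 at pinning, 12.6 and 9.36 at first flush, 4.74 and 8.29 after first flush, 17.2 and 24.2 during second flush and lastly 83.5 and 58.2 after second flush. Its after second flush libraries were the highest 2, and its levels rose at both of the last steps. The rise into second flush (log2 change 1.80, SE 0.28, edgeR adjusted p = 0.0032) was lost only in the fit on the compared stages alone (adjusted p = 0.073), and the one after second flush (1.72, SE 0.26, edgeR adjusted p = 0.0042) stood under every setting. It fell into first flush (−2.32, SE 0.27, edgeR adjusted p = 0.00011).

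The cutinases, which split the polyester of the plant cuticle and are weakly annotated here, all fell between spawning and pinning. Cutinase 190202 had 29.7 and 23.8 RPKM at spawning, 2.22 and 2.53 at pinning, 75.2 and 46.7 at first flush, 2.21 and 1.79 after first flush, 1.41 and 2.45 during second flush and lastly 12.5 and 9.14 after second flush. Cutinase 183005 had 53.4 and 44.2 RPKM at spawning, 1.89 and 2.41 at pinning, 7.0 and 4.67 at first flush, 0.607 and 0.387 after first flush, 1.31 and 1.09 during second flush and lastly 1.11 and 1.84 after second flush. For 190202 the first flush libraries were the highest, and for 183005 those from spawning. From spawning to pinning 190202 fell by 3.62 (log2 change −3.62, SE 0.32, edgeR adjusted p = 5.5e-06) and 183005 by 4.63 (−4.63, SE 0.29, edgeR adjusted p = 9.9e-07). Into first flush 190202 rose by 4.45 (SE 0.31, edgeR adjusted p = 2.0e-06), the largest rise of any of the 37 genes at that step, and then fell by 4.94 (−4.94, SE 0.32, edgeR adjusted p = 9.7e-07). The rise of 183005 at that step (1.21, edgeR adjusted p = 0.011) was lost without pinning replicate 1 or first flush replicate 1 (adjusted p = 0.084 and 0.089). Cutinase 176382, at 0.621 to 9.25 RPKM, lies next to 190202 in RefSeq's order on the same H97 assembly, and both were called in the same direction at each step: down, up, down, not called and up. For 176382 these calls were less firm: single libraries left out took the adjusted p to 0.061 into first flush (without first flush replicate 1), 0.22 after it (without first flush replicate 1) and 0.30 after second flush (without after second flush replicate 1). Unique-read counting leaves the split of reads between close copies uncertain.

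The steps that follow the flushes differed between the first and the second, which were tested in 1 model as a difference of changes; these steps share no library. Of the 37 genes 31 differed (83.8%), where 39.4% of all genes did, and 28 of those calls stood under every setting. In 27 the change after first flush was the lower and in 4 the higher. Over all 8814 tested genes it was the lower in 1706 and the higher in 1766. Of the 37 genes, 17 fell after the first flush and rose after the second, a pattern that was not counted over all genes. The difference in log2 change was −7.36 (SE 0.47, edgeR adjusted p = 1.5e-06) for the cutinase 190202, −6.49 (SE 0.48, edgeR adjusted p = 1.5e-05) for the arabinofuranosidase 194576 and −3.63 (SE 0.18, edgeR adjusted p = 3.2e-07) for the endo-galactanase 225045. The 4 on the other side were the endo-arabinanase 119499, the D-arabinose pair and the hydrolase 212258.

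**Figure D4:**
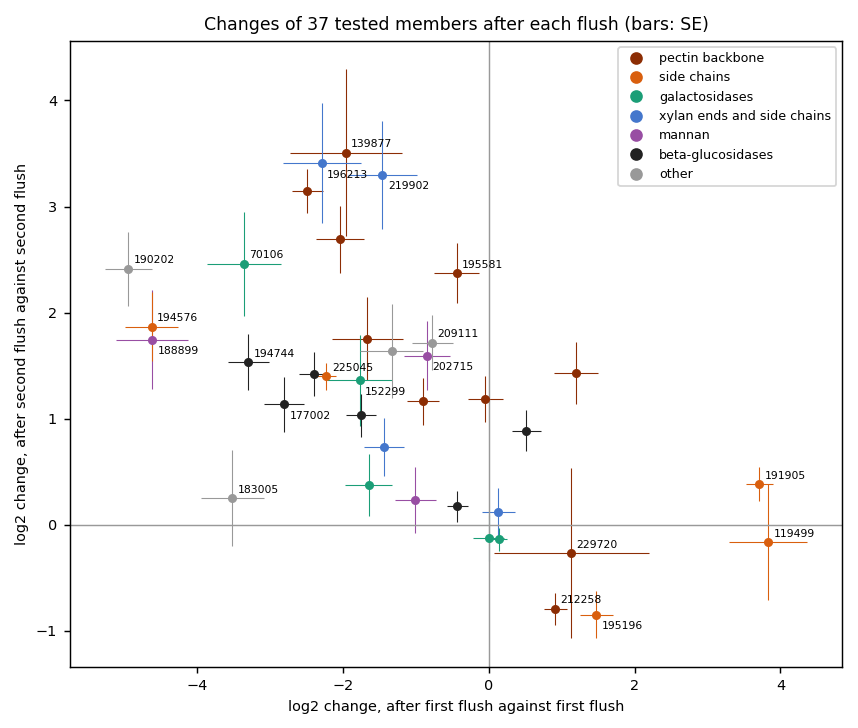
Log2 change after first flush against first flush (x axis) and after second flush against second flush (y axis) for the 37 genes tested, coloured by role group, with bars for the SE. Most points lie at upper left, down after the first flush and up after the second; the cutinase 190202 is at −4.94 and 2.42, and the endo-arabinanase 119499 at 3.83 and −0.16.

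The steps into the flushes also differed: 22 of the 37 genes (59.5%) changed differently from pinning to first flush than from after first flush to second flush, where 42.0% of all genes did. In 12 the first step was the higher and in 10 the lower. Over all 8814 tested genes it was the higher in 1840 and the lower in 1860. Of the 22 calls, 14 stood under every setting. The backbone enzymes accounted for 5 of the 10 and 1 of the 12. The difference in log2 change was 4.36 (SE 0.57, edgeR adjusted p = 0.00019) for the cutinase 190202 and −4.12 (SE 0.39, edgeR adjusted p = 5.1e-05) for the fucosidase 209111.

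Enzymes that act on the same polymers upstream gave the following values. The 5 endo-xylanases, which cut the xylan backbone, held 0.0344% of reads at spawning, 0.0691% at pinning, 0.624% at first flush, 0.0269% after first flush, 0.0233% during second flush and 0.338% at the last stage. All 5 rose into first flush (25.1% of all genes did) and fell after it (26.0% of all genes did), and 4 rose after second flush (5.29% of all genes did). The 4 endoglucanases, which cut cellulose, held 0.0172%, 0.0244%, 0.213%, 0.0174%, 0.0156% and 0.128% of reads at the same stages. Into first flush 3 of them rose and 1 fell, after first flush 3 fell and 1 rose, and after second flush 3 rose and 1 was not called. Over the same stages the 4 genes for xylan ends and side chains held 0.0336%, 0.0264%, 0.0818%, 0.0247%, 0.0107% and 0.0942%.

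Genes for the use of the released sugars gave these values. A list of 12 genes for the catabolism of pentoses and of galacturonic and galactonic acids, of which 7 are annotated as galactonate dehydratases, held 0.254% of reads at spawning and 0.197% after first flush, and 0.202% after second flush. All 12 changed over the 6 stages, where 85.6% of all genes did. Into pinning 4 rose and 3 fell, where 29.3% and 25.2% of all genes did. Into first flush 3 rose and 3 fell, where 25.1% and 23.6% of all genes did. After first flush 3 rose and 4 fell, where 26.1% and 26.0% of all genes did, and 8 of the 12 differed between the steps after the flushes, where 39.4% of all genes did. After second flush 4 rose, where 5.29% of all genes did, and 8 were not called, with a median log2 change of 0.22 against −0.01 over all genes.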

How the data were processed

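Per the file headers, each library's table gives the authors' count of uniquely placed reads per gene, with gene length, KEGG and nr annotation; its aligner and genome build: not given in the sources used here. The deposited RPKM values equal count over length over library total, checked in every line. A gene missing from a table was taken as 0. The 38 members were the same in all 12 tables, and RefSeq lists all of them for the H97 genome (9440 of 9502 genes are).

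TMM factors (0.834 to 1.11) scaled the counts, and edgeR 4.0.16 gave the fit (filterByExpr, minimum count 10 and total 15, robust quasi-likelihood, a term per stage, 6 residual degrees of freedom). Fold changes rest on TMM-scaled counts, so they can differ a little from ratios of RPKM. The SE is the log2 change over the root of the F statistic. Alternatives were DESeq2 1.42.0 (test, size factors), no filter, limma 3.58.1 on log2(RPKM + 1), a replicate block, each library left out, the compared stages alone, and members with an e-value of at most 1e-30. A left-out library leaves its stage with 1 sample, assumed to vary like the others. R 4.3.3 and Python 3.11.15 were used. The fit was tried on simulated counts with changes planted at first flush alone. For first flush against pinning it called 24% of 1.5-fold, 74% of 2-fold and 100% of 4-fold changes. After first flush it called 22%, 74% and 98%. Genes otherwise had the same mean at every stage, unlike these data, so the rates may not carry over.

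Described in full are the 2 highest members of each role group, per comparison the member called with the steepest rise and that with the steepest fall (libraries not overlapping) and the lowest p per difference of steps; the other members are given by levels. Members and lists were chosen with earlier results of these data known. No strand setting is stated, which leaves genes that overlap uncertain.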

Additional observations from a re-analysis of the deposited data

Results flagged for a closer look

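The same contrast around each flush was tested for a difference between the first and the second flush in edgeR's model, and the genes below passed at an adjusted p under 0.05. Values are differences in log2 change, first flush step minus second flush step. No explanation was tested.

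For the step after the flush, pectin backbone genes differed by −5.47 (pectate lyase 139877), −2.81 (pectate lyase 195581) and 1.70 (rhamnogalacturonyl hydrolase 212258). Side-chain genes differed by −6.49 (arabinofuranosidase 194576), −3.63 (endo-galactanase 225045) and 3.997 (endo-arabinanase 119499), and the D-arabinose pair by 2.32 (195196) and 3.32 (191905). The galactosidases 70106 and 152299 differed by −5.82 and −3.13, the acetylxylan esterase 196213 by −5.70 and the xylosidase 219902 by −4.76. The beta-mannosidases 188899 and 202715 differed by −6.36 and −2.45, and the beta-glucosidases 194744 and 177002 by −4.83 and −3.95. The fucosidase 209111 differed by −2.49 and the cutinases 190202 and 183005 by −7.36 and −3.77.

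For the step into the flush, the values were −2.18 for 195581, −2.41 for 212258 and −3.90 for the polygalacturonase 229720. They were 2.35 for 119499, −2.80 for 195196 and −1.91 for 191905. They were 2.75 for 196213 (2.745 before rounding), 2.68 for 219902 and 2.56 for 188899. The beta-glucosidases 194744 and 177002 gave 1.21 and 1.34, the fucosidase 209111 −4.12 and the cutinase 190202 4.36. The calls for 229720, 119499, 188899, 196213, 219902, 194744 and 177002 at this step were lost when single libraries were left out; the highest adjusted p was 0.31, for 229720 without second flush replicate 1.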

How the results depend on the processing

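Of 215 called changes of single genes, 136 were called under every alternative and 79 lost a call under at least 1; of 2309 alternative values 0 reversed. With 1 library left out at a time, called members numbered 19 to 21 for pinning against spawning (25 with all), 16 to 23 for first flush against pinning (25), 23 to 28 after first flush (30), 3 to 13 for second flush against after first flush (9), 8 to 21 after second flush (24), 24 to 26 for second flush against first flush (25) and 14 to 26 for after second flush against after first flush (24). For the differences between steps the ranges were 15 to 23 into the flushes (22) and 28 to 32 after them (31), and 35 to 37 changed over all stages (36). Fitting only the compared stages left 0 called for second flush against after first flush and 12 for after second flush against after first flush. Of the single-gene calls, 34 were lost in such fits. The counts stayed within 1.5 times under DESeq2, its size factors, no filter and limma. They also did under the stricter annotation limit. That limit only recounts the main calls without the 5 weakly matched members, so most counts could not have moved further. With the replicate block the counts were 24, 25, 27, 8, 22, 25, 23, 22, 31 and 36, in the order above. The correlations of the deviations of same-numbered libraries ran from −0.239 to 0.204 over 15 pairs of stages. The labels do not say whether replicate numbers pair libraries, and with 2 libraries per stage these correlations cannot settle it. The fits on the compared stages alone and those with 1 library left out hold fewer samples. What caused the changes in the counts was not tested. Depth limits the genes under about 1 RPKM.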
